A study of Homo sapiens with 9 samples.

Results

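EPRS1, HIRA, GUK1, LBH and PIGQ are 5 of the 20649 protein-coding and lncRNA genes of Gencode v44 with a TIF-Seq2 read pair in K562 cells. They were picked because, in the same libraries, RNA molecules with 5′ ends inside or upstream of the gene had seemed more frequent after imatinib. The imatinib values of these genes are therefore given as a description, with standard errors and without p-values. A read pair was assigned to a gene when both of its ends lay on the strand of the gene within 2 kb of its body, and its start was called annotated when it fell within 200 bp of a transcript start of that gene and new otherwise.

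K562 is an established human line of chronic myeloid leukemia with erythroid features, in which the BCR-ABL1 fusion kinase is active, and imatinib blocks the ABL kinase. Cells of this line were given 1 μM imatinib or the DMSO vehicle for 24 h, and each condition has 2 TIF-Seq2 libraries. TIF-Seq2 joins the 5′ and the 3′ end of a full-length cDNA made from capped RNA. Each read pair is taken to mark the transcription start site (TSS) and the poly(A) site (PAS) of 1 RNA molecule. All 5′ ends are counted as starts here, scattered ones in exons included, and whether each is a site of initiation was not tested. The methods of the study describe both libraries of a condition as biological replicates. In bulk RNA, fewer cells with a transcript and less of it per cell cannot be told apart.

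A gene can be transcribed from several promoters, and a start inside an intron gives a shorter RNA that lacks the exons before it, and with them part of the coding sequence. Mammalian RNA polymerase II often begins at a purine preceded by a pyrimidine, a step called YR here, and many housekeeping promoters lie in CpG-rich DNA. The enzymes and factors in this group are unrelated to each other in function. EPRS1 joins glutamate and proline to their tRNAs. HIRA deposits the histone variant H3.3 outside replication. GUK1 phosphorylates GMP, LBH is a transcription cofactor of the WNT pathway in development, and PIGQ is a subunit of the enzyme that starts the synthesis of GPI anchors.

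The libraries hold 2263121 to 5135829 deposited read pairs, of which 88.4% to 90.7% were kept. Levels are given as read pairs per 1000000 kept pairs after TMM scaling (CPM). The K562 markers were present as labelled. All 10 fixed markers had read pairs in every library, and their summed level was 7210 and 6140 CPM in DMSO and 20200 and 20300 CPM in imatinib. The globin genes HBG2, HBE1 and HBZ hold most of this sum, whereas the erythroid factor GATA1 had 675 and 1356 read pairs in DMSO and 1066 and 450 in imatinib. Of 8 markers of other blood cells, CD3E, MS4A1, CD14 and PAX5 were at 0 in all libraries, and the summed level of the list ranged from 63.6 to 183 CPM. The part of the higher marker sum in the results below was not tested.

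**Figure D1:**
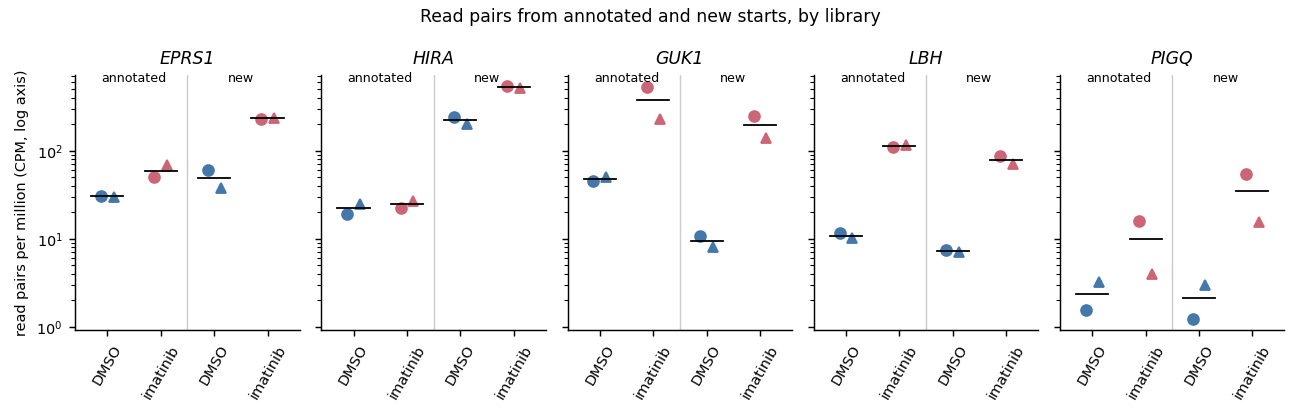
Read pairs in CPM (log axis) that start at annotated and at new starts of each gene, with circles for replicate 1, triangles for replicate 2 and a bar for the mean of 2 libraries. The genes were picked on this contrast. New-start pairs of EPRS1 are at 61 and 37.6 CPM in DMSO and 232 and 237 CPM in imatinib, whereas annotated-start pairs of HIRA stay between 19.2 and 26.9 CPM. New-start pairs of HIRA include those from the start of a neighbouring gene, C22orf39.

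In EPRS1, the new starts gathered at a single place in exon 29 of 32, far down the gene. The canonical transcript runs on the minus strand from 220046505 to 219968600 of chromosome 1 (hg38), and the site spans chr1:219973261-219973402, 73.2 kb from the canonical start. The bases before its most used position, at 219973291, are shown because no transcript of the annotation starts within 4044 bp of it. Capitals mark the step at the most used start and a copy of AGATAA read on the other strand (TTATCT), the core recognised by GATA factors, 118 bases before it.
EPRS1 exon 29 site, chr1:219973277-219973441, minus strand: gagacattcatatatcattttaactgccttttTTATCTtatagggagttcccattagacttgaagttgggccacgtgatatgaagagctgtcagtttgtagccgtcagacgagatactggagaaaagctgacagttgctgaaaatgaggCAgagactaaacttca

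The exon 29 site of EPRS1 held 25 and 38 read pairs in the DMSO libraries and 584 and 265 in the imatinib libraries. On the CPM scale these are 7.74 and 8.08 against 149 and 132, a 17.7-fold higher mean with imatinib. The groups did not overlap, and the imatinib libraries were alike after scaling. The 5′-tag cluster around the most used position had a log2 fold change of 5.46 (SE 0.53) and passed the limits for a call, as 13.1% of all 12600 clusters tested did and 7.3% did in this direction. The site took 8.45% and 11.9% of the read pairs of EPRS1 in DMSO and 52.8% and 43.1% in imatinib. With imatinib, about as many EPRS1 read pairs started there as everywhere else in the gene. The median genomic span of a pair was 4.71 kb from this site and 77.9 kb from the annotated start site. Whether short and long RNAs are recovered equally was not tested, so these are shares of read pairs and not of RNA molecules in the cell.

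The starts in exon 29 were spread over several positions rather than 1. The most used, 219973291, took 14.8% of the pairs of the site, as did 219973309, 18 bases upstream, and both are CA steps. Of the pairs of the site, 99.7% began in the exon, and the most used position lies 107 bases after the exon begins. A small companion site in intron 29, with its most used position at 219972707, had no read pair in DMSO and 28 and 6 in imatinib, where a count of 0 allows up to 3 pairs.

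From the exon 29 site, 7.63% of the canonical coding bases lie downstream, beginning in codon 1397 of 1512. The first ATG of the canonical frame after the site is codon 1424, which would leave 89 codons. This stretch belongs to the carboxyl end of the prolyl-tRNA synthetase part of the protein. Whether such an RNA is translated was not measured.

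The annotated start of EPRS1 moved less than the exon 29 site. Its start site held 93 and 128 read pairs in DMSO and 185 and 130 in imatinib, or 28.8 and 27.2 CPM against 47.1 and 64.6 CPM. Over all annotated starts the log2 fold change was 0.95 (SE 0.32), and over all new starts it was 2.25 (SE 0.32). The remaining new starts of EPRS1 were scattered. Outside the site, 777 exonic read pairs began at 477 positions, at 52.3 and 28.9 CPM in DMSO and 68.7 and 100 CPM in imatinib, a 2.08-fold difference of the means.

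In HIRA, a start in intron 6 was nearly unused in DMSO and common in imatinib. The canonical transcript lies on the minus strand of chromosome 22 from 19431733 to 19330698, in 25 exons, and the site spans chr22:19397055-19397243, 34599 bases from its start and 187 bases before exon 7. It lies 33129 bp from any transcript start of HIRA.

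The intron 6 site of HIRA held 14 and 7 read pairs in the DMSO libraries and 735 and 246 in the imatinib libraries. In CPM the levels were 4.33 and 1.49 against 187 and 122, a 53.1-fold higher mean, which is the highest fold among the 39 start sites of the 5 genes for which one was computed. Neither group overlapped the other. The log2 fold change of its 5′-tag cluster was 5.71 (SE 0.49).

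The canonical start of HIRA showed no such rise. It held 55 and 108 read pairs in DMSO and 72 and 45 in imatinib, or 17 and 23 CPM against 18.3 and 22.4 CPM, and the ratio of the means was 1.02. Over all annotated starts of HIRA the log2 fold change was 0.14 (SE 0.33). The intron 6 site took 33.2% and 22.7% of the read pairs of the gene in imatinib and 1.65% and 0.665% in DMSO.

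A start of another gene dominates the count of new starts in HIRA. The neighbour C22orf39 on the same strand begins at 19447692, and this start falls within the 2 kb margin of HIRA because a minor transcript of HIRA, HIRA-203, begins 242 bp away. It held 521 and 607 read pairs in DMSO and 906 and 576 in imatinib, 1.78-fold more by mean CPM, and the most used end of these molecules was 19440889. With all of them counted, 92.7% and 88.8% of HIRA pairs in DMSO and 96% and 95% in imatinib had a new start. Without pairs within 200 bp of a start of another gene the shares were 80.7% (95% Wilson interval 76.1 to 84.7) and 73.5% (69.2 to 77.4) in DMSO and 93.3% (91.8 to 94.5) and 89.3% (86.3 to 91.7) in imatinib. The choice therefore sets the size of the difference but not its direction.

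The intron 6 start would keep most of HIRA. Downstream of it lie 83.8% of the coding bases, from codon 165 of 1017, and the first ATG in the canonical frame is codon 243, which leaves 775 codons. The part before it codes for WD repeats, which form the amino-terminal propeller of the protein. The other new starts in exons of HIRA were scattered, with 989 read pairs at 687 positions, and their levels were 61.3 and 56.8 CPM in DMSO and 94.2 and 76.6 CPM in imatinib.

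In GUK1, the largest rise of the 5 genes by read pairs came from intron 1. The canonical transcript lies on the plus strand of chromosome 1 from 228140279 to 228148951, in 8 exons, and the leading site spans chr1:228144620-228144733, 815 bases before exon 2. A further site spans chr1:228145784-228146062 in intron 2. Capitals in the sequences mark the step at the most used position, and in the latter also a copy of TGATAA 142 bases before it. The sequences are shown because both sites begin with CA.
GUK1 intron 1 site, chr1:228144636-228144710, plus strand: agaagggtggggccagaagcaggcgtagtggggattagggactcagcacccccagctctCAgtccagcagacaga
GUK1 intron 2 site, chr1:228145830-228145994, plus strand: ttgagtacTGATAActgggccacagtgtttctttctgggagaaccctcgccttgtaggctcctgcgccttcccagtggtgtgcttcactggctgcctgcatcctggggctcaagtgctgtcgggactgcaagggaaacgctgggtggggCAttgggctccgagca

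The intron 1 site of GUK1 held 35 read pairs in each DMSO library and 2026 and 471 in the imatinib libraries. Its levels were 10.8 and 7.44 CPM in DMSO and 516 and 234 CPM in imatinib, a 41-fold higher mean. Imatinib replicate 1 stood above replicate 2, and both stood far above DMSO. The intron 2 site had 16 and 27 read pairs in DMSO and 507 and 148 in imatinib, an 18.9-fold difference of mean CPM. Of the pairs of this site, 100% counted as annotated by the 200 bp rule. Its most used position lies 97 bp from the start of GUK1-215, a retained-intron transcript. The canonical start of GUK1 held 46 and 91 pairs in DMSO and 161 and 32 in imatinib, a ratio of means of 1.69 in which the libraries overlap on the CPM scale (14.2 and 19.4 against 41 and 15.9).

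The line between annotated and new starts cuts through the intron 1 site. Its most used position, 228144696, lies 201 bp from the start of a retained-intron transcript, GUK1-218, so that 51.9% of the pairs of the site counted as annotated. As a result 19.1% (95% Wilson interval 14.1 to 25.4) and 13.9% (10.3 to 18.5) of GUK1 pairs in DMSO and 31.8% (30.2 to 33.5) and 38% (34.6 to 41.6) in imatinib had a new start. With a window of 100 bp the shares were 35% and 28.6% in DMSO and 72.7% and 70.8% in imatinib. With 500 bp every site of GUK1 counted as annotated and the shares were at most 0.546%. The log2 fold change was 4.37 (SE 0.40) for new and 2.99 (SE 0.40) for annotated starts at 200 bp, and 3.32 (SE 0.38) over all read pairs of the gene.

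Molecules from the intron 1 site of GUK1 hold 90.7% of the coding bases, from codon 21 of 218. The first ATG of the canonical frame downstream is codon 22, which leaves 197 codons, the length of the cytosolic form of guanylate kinase without the amino-terminal extension of the longer form. The intron 2 site leaves 73.2% of the coding bases. The share of GUK1 read pairs that began at the intron 1 site was 19.1% and 12.8% in DMSO and 66.2% and 63.7% in imatinib. The imatinib libraries were thus close in this share although their levels differed.

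In PIGQ, the start that rose lies upstream of the canonical transcript but inside the gene body, which begins at 566995. The canonical transcript, PIGQ-203, runs on the plus strand of chromosome 16 from 569968 to 584109 in 11 exons, and the site spans chr16:568921-568974, with the most used position 1029 bp before the canonical start. It lies 102 bp from a start of the lncRNA ENSG00000282907, which overlaps PIGQ on the same strand. Capitals in the sequence mark the CA step at 568939.
PIGQ upstream site, chr16:568879-568953, plus strand: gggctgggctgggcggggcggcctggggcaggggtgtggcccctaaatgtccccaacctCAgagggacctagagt

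The upstream site of PIGQ held 2 and 7 read pairs in DMSO and 189 and 28 in imatinib, or 0.619 and 1.49 CPM against 48.1 and 13.9 CPM. The mean was 29.4-fold higher with imatinib, from few DMSO molecules. Both imatinib libraries were above both DMSO libraries, and imatinib replicate 1 was the higher of its group. At 568965, 26 bases downstream and also a CA step, there was no pair in DMSO and there were 62 and 7 in imatinib.

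PIGQ is the least covered of the 5 genes, with 9 and 29 read pairs in the DMSO libraries and 279 and 39 in the imatinib libraries. New starts made up 44.4% (95% Wilson interval 18.9 to 73.3) and 48.3% (31.4 to 65.6) in DMSO and 77.4% (72.2 to 81.9) and 79.5% (64.5 to 89.2) in imatinib. At this depth the interval of DMSO replicate 1 overlaps those of both imatinib libraries, and that of DMSO replicate 2 overlaps that of imatinib replicate 2. If starts of the lncRNA and of the neighbour NHLRC4 count as annotated, the new-start shares become 22.2% and 20.7% in DMSO and 9.68% and 7.69% in imatinib, since the upstream site is then no longer new. The log2 fold change of new-start pairs was 4.01 (SE 0.66), and 2.79 without imatinib replicate 1.

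Targeted long reads show what lies between the ends for PIGQ. Of the models deposited for K562, whose treatment the labels do not split, 2 begin at 568956 inside the upstream site and end at 584107. The long reads came from PCR with forward and reverse transcription primers specific to each isoform, chosen with the TIF-Seq2 data, so the ends of the models may be those of the primers, and the models are used here for the splicing between them. The first exon of each model is not in PIGQ-203 and is spliced to 574066, where exon 2 of PIGQ-203 begins. The longer model has 11 exons and shares 9 of its 10 introns with PIGQ-203. Read pairs with both ends within 100 bp of these ends numbered 1 and 4 in DMSO and 180 and 24 in imatinib. In these models the new exon stands in place of exon 1 of PIGQ-203, whose coding sequence begins after it, at 574075 in exon 2.

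LBH goes against the label of an internal or alternative start. Its rise began at the annotated start, at 30231537 on the plus strand of chromosome 2, 3 bp from the canonical start. The sequence is shown because it holds a TATAAA box, in capitals with the TG step at the most used start, 34 bases before it.
LBH annotated start, chr2:30231477-30231551, plus strand: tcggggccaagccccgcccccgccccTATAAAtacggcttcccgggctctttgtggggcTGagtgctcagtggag

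The annotated start site of LBH held 31 and 45 read pairs in DMSO and 393 and 227 in imatinib, 9.59 and 9.57 CPM against 100 and 113 CPM, an 11.1-fold higher mean. The libraries of each condition were close to each other. The site is narrow, 9 bases wide with 60.5% of its pairs at 1 position. New-start pairs of LBH rose by the same measure as annotated ones, with log2 fold changes of 3.45 (SE 0.34) and 3.39 (SE 0.32), and their share was 39.3% and 40.7% in DMSO and 44.2% and 37.9% in imatinib, so the groups overlapped.

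The new starts of LBH lay mostly in exon 3, its last exon. Of 542 read pairs with a new start, 453 began there at 304 positions, with 14 and 23 in DMSO and 303 and 113 in imatinib. No position dominated: in the stretch of exon 3 with the most pairs, the most used position took 7.41% of 81. In the other exon 3 sites it took 14% to 21.8%. A site in intron 2, with its most used position at 30252258, had 8 and 9 read pairs in DMSO and 26 and 24 in imatinib, a 4.23-fold higher mean.

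**Figure D2:**
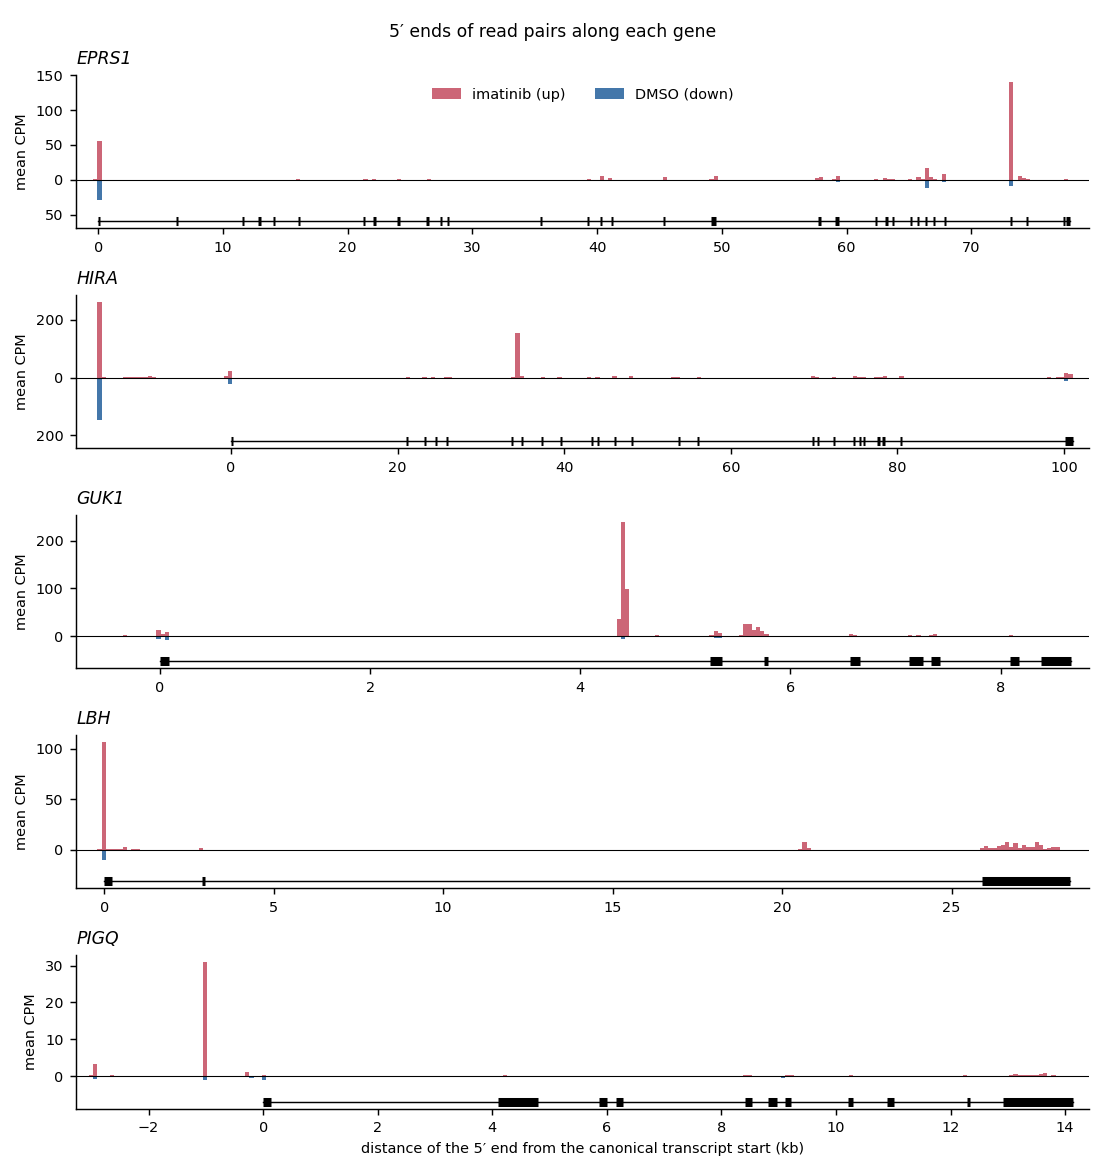
Mean CPM of 5′ ends along each gene in imatinib (upward) and DMSO (downward), against the distance from the canonical transcript start (kb), with the canonical exons as black boxes. The leading bars of EPRS1, HIRA, GUK1 and PIGQ in imatinib lie away from 0, and that of LBH lies at 0, while the bar 16 kb upstream of HIRA is the start of C22orf39.

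As a background, 584 of 7046 genes tested for new-start pairs (8.29%) were called by edgeR's quasi-likelihood test, which needed an adjusted p below 0.05 and more than 1.5 on the log2 scale in either direction, and 380 (5.39%) were higher. EPRS1, GUK1, LBH and PIGQ passed these limits and HIRA, at 1.26 (SE 0.25), did not. HIRA passed at 1.84 (SE 0.29) when starts of any gene counted as annotated, which removes C22orf39, and at 1.86 (SE 0.29) with a 500 bp window. For annotated starts 872 of 9241 (9.44%) changed and 547 (5.92%) were higher, GUK1 and LBH among them. Over all read pairs, 730 of 11210 genes (6.51%) were higher, among them 4 of the 5 at log2 fold changes of 1.87 (SE 0.28) for EPRS1, 3.32 (SE 0.38) for GUK1, 3.41 (SE 0.30) for LBH and 3.31 (SE 0.63) for PIGQ, while HIRA was at 1.17 (SE 0.25). Without imatinib replicate 1 the value over all read pairs was 2.68 for GUK1 and 2.05 for PIGQ. Since the genes were picked on this contrast, nothing is read from these counts.

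The base step at the start was compared between sites. In the 6 sites with a fold of 10 or more outside the last exon of LBH, namely the EPRS1 exon 29, HIRA intron 6, GUK1 intron 1, GUK1 intron 2, PIGQ upstream and LBH annotated sites, 50.2% to 78.1% of read pairs began at a YR step. In 19 exonic sites over 200 bp from any start of their own gene and with a fold under 5, it was 4.76% to 36.4%, with a median of 14%, and of these 11 are in HIRA, 7 in EPRS1 and 1 in GUK1. High shares were also found at sites with smaller folds, namely 87.2% at 228145023 in GUK1 (2.06-fold), 86.2% at 19432301 upstream of HIRA (2.92-fold), 82.6% at 567005 in PIGQ (3.86-fold), 76.1% at 30252258 in LBH (4.23-fold) and 59.6% at the canonical start of HIRA (1.02-fold). The last-exon sites of LBH, at 3.33% to 23.6%, had low shares like the 19 exonic sites, although they rose. No fold was computed for those with 3 or fewer DMSO read pairs. No test was made, since sites within a gene share its molecules and the fold chose the sites. Among all 15953 5′-tag clusters of the libraries, 71.3% had a YR step at the most used position, 74.7% of those within 200 bp of a transcript start and 44% of the others.

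**Figure D3:**
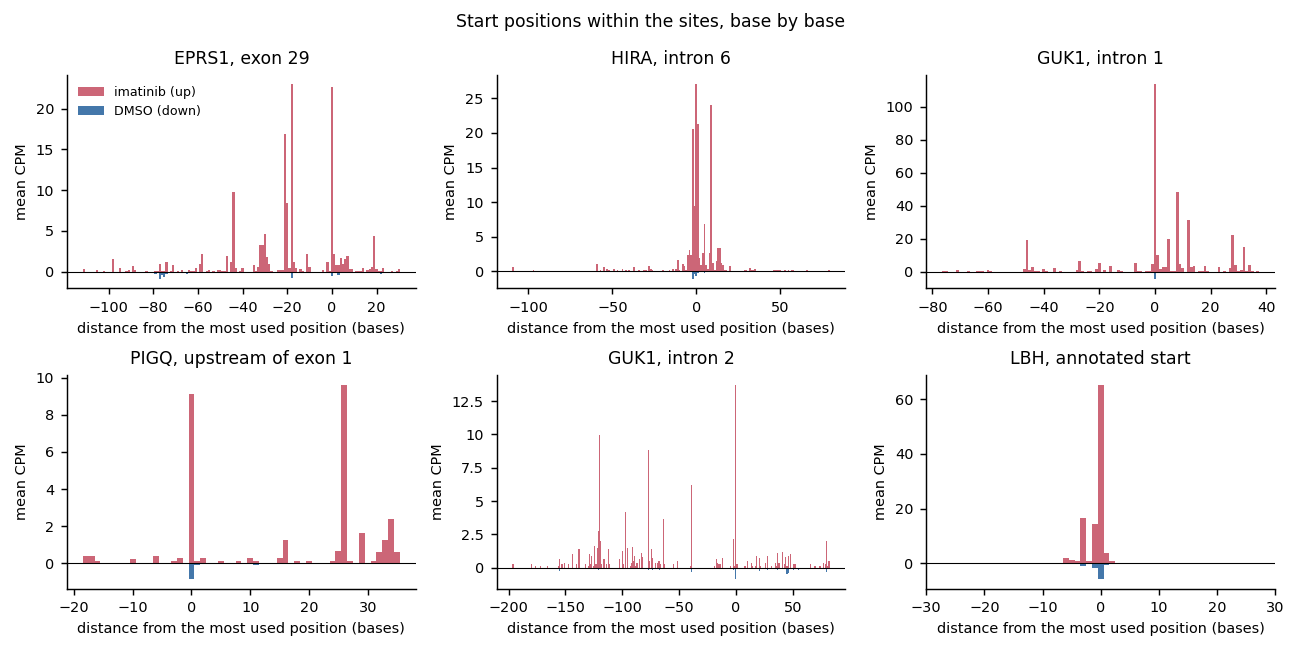
Mean CPM at each base within 6 sites, imatinib upward and DMSO downward, against the distance in bases from the most used position of the site. The EPRS1, HIRA and GUK1 starts are spread over many bases with a few tall positions, and the LBH annotated start is 9 bases wide with 60.5% of its pairs at 1 of them.

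The leading sites inside EPRS1 and GUK1 do not lie in CpG-rich DNA. The 150 bases before the most used position hold 3 CpG in each, whereas before the canonical starts of these genes they hold 26 and 16. The PIGQ upstream site has 4 CpG and the LBH annotated start 14. The median was 15 over the 14213 clusters within 200 bp of a transcript start and 3 over the 1740 clusters further away. The EPRS1 and GUK1 leading sites are like the latter in this respect, although the GUK1 position lies only 201 bp from a transcript start. The PIGQ site, 102 bp from a transcript start, has fewer CpG than the median of the former.

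Short motifs were searched as letters in the same 150 bases, on both strands except for the TATA box. The letters AGATAA were found before the EPRS1 exon 29 site and, as TTATCT 132 bases upstream, before the LBH exon 3 site with the most pairs, and not before the GUK1 intron 1, PIGQ upstream and LBH annotated sites. They occur before 4.17% of all clusters and 12.8% of those over 200 bp from a transcript start. TGATAA, found before the GUK1 intron 2 site, occurs before 2.69% and 7.93%. TATAAA beginning 40 to 20 bases before the start was found at LBH and at none of the leading sites in EPRS1, GUK1 and PIGQ, and at 1.22% of all clusters. GGGCGG, a GC box, was found at PIGQ and LBH and at none of the leading sites in EPRS1 and GUK1, and occurs before 54.9% of clusters. A match is a description of letters, not of binding.

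**Figure D4:**
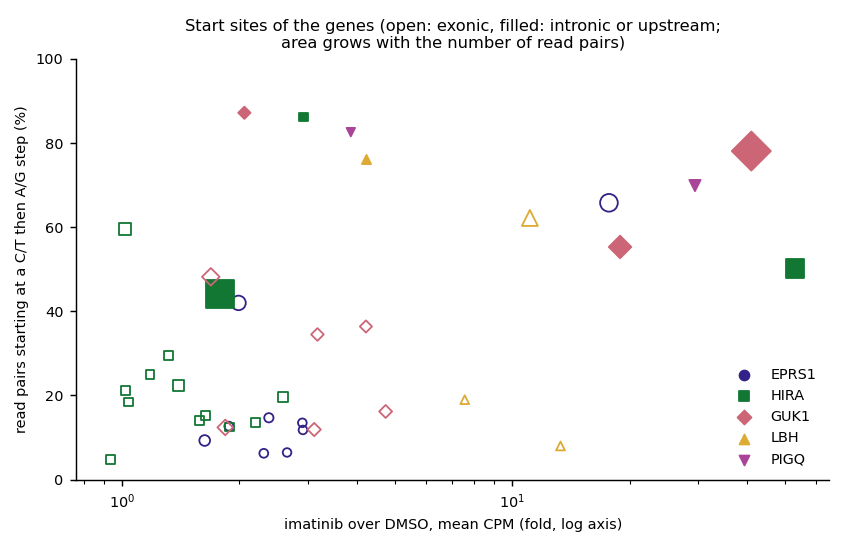
Share of the read pairs of each start site that begin at a YR step (%), against the ratio of mean CPM in imatinib to DMSO (fold, log axis), for 39 sites of the 5 genes, with open symbols for exonic and filled for intronic or upstream sites. Among the plotted sites, those at 10-fold or more sit at 50.2% to 78.1% except 1 open triangle, a last-exon site of LBH at 13.3-fold and 8%. Sites with 3 or fewer DMSO read pairs have no fold and are not plotted. Of these, the LBH last-exon sites at 30257476, 30258050 and 30258994 have YR shares of 3.33%, 16% and 23.6%. Their mean CPM was 0.106, 0.261 and 0.319 in DMSO and 4.3, 13.2 and 8.07 in imatinib. The unplotted EPRS1 intron 29 site has 79.4%.

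Starts on the opposite strand were also counted, since many promoters fire in both directions. On the opposite strand within 1000 bases upstream of the leading sites, EPRS1, GUK1 and PIGQ had 0 read pairs in every library and HIRA had 1, in imatinib replicate 1. The canonical start of HIRA had 2729 and 3143 opposite-strand pairs in DMSO and 2273 and 1773 in imatinib. At the canonical starts of EPRS1 and GUK1 there were 0. Pairs from annotated genes on the opposite strand were not separated in these counts, so the HIRA numbers may be those of a neighbouring gene.

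The 3′ ends were not used to pick the genes, so it was asked whether molecules with new starts reach the annotated poly(A) site. A start far down a gene leaves fewer places to end, so the start position itself limits the outcome. For each gene, the percent of new-start pairs that ended within 200 bp of the canonical end was set against that of annotated-start pairs of the same library. With 4 libraries the exact two-sided sign-flip permutation test cannot give a p below 0.125, so no difference could pass 0.05, and only size and direction are available.

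In EPRS1, new-start molecules ended at the canonical PAS more often than annotated-start molecules, in 4 of 4 libraries. The shares were 97.5%, 98.3%, 99.6% and 99% for new starts and 79.8%, 85.2%, 92.3% and 92% for annotated starts, in the order DMSO replicates 1 and 2, then imatinib replicates 1 and 2. The mean difference was 11.2 points (SD 5.15, n = 4, exact permutation p = 0.125, adjusted p = 0.208 over the 5 genes). It was 33.7 points when read pairs next to A-rich genomic DNA were kept, which gave DMSO replicate 1, for example, 150 instead of 99 annotated-start pairs and 203 instead of 197 new-start pairs. All 912 pairs from the exon 29 site ended there, 25, 38, 584 and 265 in the libraries. These pairs cannot end before exon 29, whereas those from the annotated start can.

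In GUK1 and LBH the 3′ end differed little between the start classes. In LBH, 453 of the 542 new-start pairs began in the last exon, so few other ends were open to them. The difference was 0.012 points (SD 0.024, n = 4, exact permutation p = 1) in GUK1 and 1.03 points (SD 1.5, n = 4, exact permutation p = 0.25, adjusted p = 0.312) in LBH. In all libraries 96.8% or more of the pairs from their canonical start sites reached the canonical end.

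In HIRA the comparison depended on C22orf39. The difference between new-start and annotated-start pairs was -51.1 points (SD 15.2, n = 4, exact permutation p = 0.125, adjusted p = 0.208), lower in 4 of 4 libraries, and of the 2610 pairs from the start of C22orf39 1.11% ended there. Without starts of other genes, a comparison added after the values were seen, the difference was 0.806 points (SD 7.13, n = 4, exact permutation p = 0.875). The intron 6 site itself ended at the HIRA PAS in 78.6% of 14 and 100% of 7 pairs in DMSO and in 98.5% of 735 and 98.4% of 246 in imatinib.

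In PIGQ the difference was 29.3 points (SD 20.5, n = 4, exact permutation p = 0.125, adjusted p = 0.208), higher for new starts in 4 of 4 libraries, with 5 to 63 annotated-start pairs per library behind it. Some molecules with an annotated start begin at 567005, where NHLRC4 and a PIGQ transcript start together, and of those 21.7% of 23 reached the PIGQ end. From the upstream site, 50% of 2 and 42.9% of 7 pairs reached it in DMSO and 95.2% of 189 and 85.7% of 28 in imatinib.

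The shift of starts can be set beside that of other genes. Among 7116 genes with at least 20 read pairs in every library, the median share of new-start pairs was 11% and 10.4% in DMSO and 12.4% and 10.8% in imatinib, and 1715 (24.1%) had a higher share in both imatinib libraries than in both DMSO libraries. GUK1 ranked 77, EPRS1 112, HIRA 717 and LBH 4359 by the gap between the lower imatinib and the higher DMSO share, which was 12.7, 11, 2.34 and -2.85 points, and PIGQ had too few pairs. The genes with the widest gap were PTK2, a focal adhesion kinase, at 31.4% and 27.9% in DMSO and 88.6% and 87.9% in imatinib, and RRP15, a ribosome biogenesis factor, at 6.33% and 9.12% against 71.2% and 58.7%. TM4SF19-DYNLT2B, ZNF691 and TM4SF19 followed, with gaps of 47.5, 47.4 and 42.7 points. A gap above 10 points was found in 137 genes (1.93%), GUK1 and EPRS1 among them, and the place of GUK1 rests on the 200 bp line through its intron 1 site.

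Genes that work with the 5 were looked at over all their read pairs, in lists chosen by function. Of 41 tested genes in 5 lists, 0 passed both limits by edgeR's quasi-likelihood test, beside 9.74% of all genes tested, and 0 did by DESeq2, while 12 (29.3%) had an unadjusted p under 0.05, beside 30.7% of all genes tested. Without imatinib replicate 2, AIMP2 passed at a log2 fold change of -1.99.

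For EPRS1 the list was the multi-tRNA-synthetase complex, in which it sits with other synthetases and scaffold proteins. Of 10 genes 0 passed, and the median log2 fold change was -0.28, beside 0.019 over all genes. QARS1, which charges glutamine tRNA, was at 201 and 238 CPM in DMSO and 354 and 387 CPM in imatinib (log2 fold change 0.75, SE 0.25, adjusted p = 0.0731), and the scaffold AIMP2 was at 23.6 and 29.9 against 6.88 and 16.3 CPM (-1.28, SE 0.43, adjusted p = 0.0728).

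For HIRA, the list held its complex partners and the H3.3 genes, and 0 of 7 passed, with a median of 0.46. The H3.3 genes differed in direction, and neither passed. H3-3A was at 1610 and 1270 CPM in DMSO and 1810 and 2160 CPM in imatinib (log2 fold change 0.46, SE 0.25). H3-3B was at 1040 and 1030 CPM in DMSO and 596 and 939 CPM in imatinib (-0.43, SE 0.28). For GUK1, 0 of 12 nucleotide kinases passed both limits, with a median of -0.61. NME1, a nucleoside diphosphate kinase, at 882 and 786 CPM in DMSO and 365 and 334 CPM in imatinib (log2 fold change -1.26, SE 0.25, adjusted p = 0.00941), had an adjusted p under 0.05 by the quasi-likelihood test with a change below the fold limit. GUK1 had a log2 fold change of 3.32 in the same fit.

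For PIGQ, 0 of 6 other subunits of the GPI-GlcNAc transferase passed, with a median of 0.46, and PIGA, the catalytic subunit, was at 3.14 and 3.37 CPM in DMSO and 2.8 and 1.48 CPM in imatinib. For LBH, 0 of 6 tested genes of WNT signalling to transcription passed, with a median of -0.28, and CTNNB1, which codes for β-catenin, was at 45.5 and 46.8 CPM in DMSO and 29 and 53.4 CPM in imatinib.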

How the data were processed

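The 4 TIF-Seq2 tables hold deposited counts of read pairs per combination of 5′ and 3′ end. Per the labels and the study's methods, the authors trimmed reads with cutadapt 1.16, aligned both ends to hg38 with STAR 2.5.3a, kept uniquely mapped pairs and removed PCR duplicates by UMI. The counts are not normalized. The long-read models, aligned by the authors with minimap2 2.16, were deposited as coordinates. The 3′T-fill libraries were not used here.

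Pairs with ends 300 bp to 2 Mb apart and fewer than 7 A in the 10 nt after the 3′ end were kept. Genes, lists and rules were chosen with earlier results of these data known. All 5 genes are named, with the 5 genes of widest shift in new-start share and, from each functional list, up to 2 called genes with the smallest adjusted p. None was called, so the genes named from the lists (QARS1, AIMP2, H3-3A, H3-3B, NME1, PIGA and CTNNB1) were chosen after their values were seen. A sequence and a gene of the lists are not reported here.

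Counts were fitted with edgeR 4.0.16 (quasi-likelihood, robust, TMM, filterByExpr) in R 4.3.3, 2 libraries against 2, over all features, with Benjamini-Hochberg adjustment, and with DESeq2 1.42.0 as an alternative. A standard error is the log2 fold change over the root of F. On simulated counts of 16126 features, 173 of 190 features changed by 2.5 on the log2 scale were recovered. 5′ tags were normalized by a power law and joined within 10 bp. Start sites joined positions of at least 2 pairs at most 50 bp apart, with at least 20 pairs in all. A leading site is the largest start site over 200 bp from the canonical start and not at the first position of another gene. Coding shares assume the exons of the canonical transcript. The libraries of a condition differed beyond counting error (chi-square per degree of freedom 10.6 for DMSO, 17.1 for imatinib), so all 4 were kept. Wilson intervals (95%) and the limit of 3 pairs for a count of 0 cover counting error only. The site figures and folds use mean CPM.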

Additional observations from a re-analysis of the deposited data

How the results depend on the processing

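The counts of called features depended on the test. New-start features called were 584, against 334 by DESeq2, 886 without a filter on low counts and 305 with a replicate block, and 333 to 1021 when 1 library was left out (333 without DMSO replicate 2, 1021 without imatinib replicate 2). Clusters called were 1653, against 1063 by DESeq2, and 1035 to 2118 with 1 library left out (1035 without DMSO replicate 2). Genes called over all pairs were 1092, against 600 without DMSO replicate 2 and 1754 without imatinib replicate 2. The partner lists had 0 genes called, and 0 to 1 with 1 library left out. Libraries with the same number did not deviate together (correlation -0.263 over start classes). With 2 libraries a condition this cannot show whether the numbers pair the samples, so the block is given as a count only. It gave 852 genes and 1290 clusters. The crossed pairing, added after seeing the data, gave 753 new-start features, 1252 genes and 1944 clusters.

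The imatinib minus DMSO difference in new-start share depended on which starts count as annotated. For HIRA it was 4.79 points, and 17.8 with a 500 bp window, 17.5 with starts of any gene and 14.7 without a margin around the gene. For GUK1 it was 18.4, and 40 with 100 bp and -0.407 with 500 bp. For PIGQ it was 32.1, and 36.1 with 100 bp, 44 with 500 bp, 29.7 without a distance limit and -12.8 with starts of any gene. For EPRS1 (18.9) and LBH (1.02) no alternative moved it beyond the replicate SD. The poly(A) difference of HIRA turned from -51.1 to 0.806 without starts of other genes, as its construction sets. Of 178 log2 fold changes of the 5 genes under alternatives, 160 stayed within 1 SE and 18 moved further, none of a called feature changing sign. The annotated-start value of PIGQ fell from 2.10 to 0.70 without imatinib replicate 1, and that of GUK1 ranged from 2.03 to 3.45.

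With 2 libraries a condition, sites with few DMSO pairs, those of PIGQ and HIRA above all, have loosely set folds.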
